A study of Mus musculus with 37 samples.

Results

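Oxidative phosphorylation is the last stage of aerobic energy metabolism, in which electrons pass through the protein complexes of the inner mitochondrial membrane and the proton gradient they build drives the synthesis of ATP. Complex I takes electrons from NADH, complex III passes them to cytochrome c, complex IV hands them to oxygen, and the ATP synthase uses the gradient. A few core subunits are encoded by the mitochondrial genome and all the others by nuclear genes, so that cells make the complexes from 2 genomes, and several nuclear subunits exist as isoforms that are used by particular tissues or at low oxygen. The nuclear genes of complexes I, III, IV and of the ATP synthase were described here in cells of a mouse model of osteosarcoma. They were chosen by name, as the protein-coding genes whose symbols begin with Ndufa, Ndufb, Ndufc, Ndufs, Ndufv, Uqcr, Cox4 to Cox8 or Atp5, without the Ndufaf assembly factors and without pseudogenes. The rule found 82 of the 51123 gene rows of the expression table, with 38 genes of complex I, 8 of complex III, 18 of complex IV and 18 of the ATP synthase. Symbols came from a GRCm38 gene table that matched 48246 of the rows.

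The 37 libraries were RNA sequencing of cultured mouse cells, in a study of what the tumor suppressors p53 and WWOX do in bone-forming cells. The knockout mice carried a Cre recombinase driven by the promoter of Osx1, a factor of committed bone-forming cells, with a tdTomato reporter that marks the cells in which Cre had worked. In single knockout (SKO) mice the recombinase deleted Trp53, and in double knockout (DKO) mice it deleted Trp53 and Wwox. Bone marrow cells came from young mice without a tumor (yBM) or from mice at the time a tumor was found (BMT), tumor cells came from the osteosarcoma itself, and control cells came from the bone marrow (BM) of mice labelled wild-type, which the study elsewhere calls Cre-negative or Cre-positive. The libraries fall into 2 sets by their titles, each with controls of its own, and no label says whether the sets were prepared apart. The first set had 4 control BM, 6 DKO yBM, 3 DKO BMT and 3 DKO tumor libraries, and its yBM came from mice of 1.5 months (3 libraries) and of 4 months (3 libraries). The second set had 3 control BM libraries and, for each of the 2 knockout genotypes, 3 libraries of yBM, 3 of BMT and 3 of tumor cells, with no ages given. For the first set the methods describe RNA taken after 3 passages, once tdTomato-positive cells prevailed in the culture, so the cultures were enriched by growth and not sorted. No label tied a library to a mouse, and p-values therefore measured the spread between libraries. Expression was given as TPM, the share of a library's transcripts that a gene takes after correction for its length, and each knockout group was set against the control BM of its own set.

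Of the 82 genes, 74 were above 0 in all 37 libraries and 72 were at 10 TPM or more in all of them. The genes of highest mean over the 37 libraries were Cox4i1 (836.4 TPM) and Cox7b (777.5 TPM) of complex IV, and Atp5b (668.7 TPM), which encodes the catalytic beta subunit of the ATP synthase. The lowest of the genes that were tested were the restricted isoforms, Cox4i2 (2.13 TPM), Cox7a1 (2.60 TPM), Cox6a2 (2.71 TPM), Ndufa4l2 (4.66 TPM) and Cox6b2 (6.57 TPM). The remaining 4 rows had no place in the tests because they did not reach 1 TPM in 3 libraries of a set, namely Cox8c and a second row of Atp5o, at 0 in all libraries, Cox7b2, above 0 in 1 library, and Cox8b, at 0 in 31 libraries. All counts that follow refer to the remaining 78 genes, of which 38 belong to complex I, 8 to complex III, 15 to complex IV and 17 to the ATP synthase.

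The promoters of these genes are known for a small group of motifs that bind the transcription factors NRF1, ETS factors such as GABPA, and YY1. RefSeq windows of GRCm38.p6, from 250 bases before to 50 bases after each start of transcription, were found for 64 of the 81 symbols, giving 69 windows. The NRF1 motif CGCNTGCGC, searched on both strands like the others, lay in 19 of the 69 windows (27.54%), against 6.25% of the 32851 windows of all genes. The ETS motif CCGGAAG was in 20.29% against 8.86%, the YY1 motif AAGATGGCG in 10.14% against 1.4%, and the E-box CACGTG, a sequence bound by Myc and related factors, in 8.7% against 7.15%. Counted by gene and not by window, the E-box was in 7.81% of the 64 symbols against 8.09% of all genes, so it was not more frequent here. The NRF1, ETS and YY1 motifs stayed more frequent than in all genes by that count. These matches describe letters in a window and do not show that a factor binds there. The 150 bases that end just before the start are printed for 6 genes on which the results turn, read along the strand of the gene. They are the 5 genes Ndufa12, Ndufs5, Ndufs6, Cox6b2 and Atp5c1, called in the first set, and Cox6b1, the common partner of Cox6b2. Capitals mark an NRF1 match in Ndufs5, Ndufs6 and Atp5c1 and an ETS match in Cox6b1, and none of the 4 motifs was found in the stretches of Ndufa12 and Cox6b2. Atp5c1 has 2 starts, of which the one whose window held more matches is printed, and the window of the other held none. The stretches lie at chr10:94198885-94199034 (plus strand), chr4:123718187-123718336, chr13:73328483-73328632, chr7:30626115-30626264, chr7:4753095-4753244 and chr2:10080433-10080582 (all 5 on the minus strand).
Ndufa12: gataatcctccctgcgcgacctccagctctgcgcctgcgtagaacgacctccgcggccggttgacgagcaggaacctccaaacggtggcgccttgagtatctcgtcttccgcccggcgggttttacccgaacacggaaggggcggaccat
Ndufs5: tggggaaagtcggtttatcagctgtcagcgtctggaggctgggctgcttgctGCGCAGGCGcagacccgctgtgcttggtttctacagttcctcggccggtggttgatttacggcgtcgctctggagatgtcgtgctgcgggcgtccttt
Ndufs6: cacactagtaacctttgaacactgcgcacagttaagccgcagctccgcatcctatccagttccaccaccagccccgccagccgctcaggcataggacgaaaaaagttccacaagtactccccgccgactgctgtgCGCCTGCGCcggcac
Cox6b1: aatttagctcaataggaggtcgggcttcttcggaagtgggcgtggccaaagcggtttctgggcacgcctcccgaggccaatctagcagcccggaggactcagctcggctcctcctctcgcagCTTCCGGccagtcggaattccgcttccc
Cox6b2: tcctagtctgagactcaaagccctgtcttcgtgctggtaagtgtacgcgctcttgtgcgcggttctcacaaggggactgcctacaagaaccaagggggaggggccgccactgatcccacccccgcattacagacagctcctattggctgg
Atp5c1: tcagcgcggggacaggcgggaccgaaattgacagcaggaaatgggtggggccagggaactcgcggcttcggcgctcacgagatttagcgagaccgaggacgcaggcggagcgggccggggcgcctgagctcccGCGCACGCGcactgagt
The GC content of the stretch ran from 58.7% in Cox6b2, with 7 CG pairs, to 69.3% in Atp5c1, with 20 CG pairs.

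Some libraries went against their labels or stood apart. By its gene-level TPM, which does not resolve the deleted exons, Wwox was at 85.1% to 164% of the control mean in 5 of the 6 libraries labelled DKO yBM and in 1 each of the DKO BMT and DKO tumor libraries of the first set. It was at 119% to 146% in all 3 of the libraries labelled DKO tumor of the second set. One of the 4 control libraries of the first set, control BM 3, was itself at 32%, and the 4 ranged from 32% to 148%. In the other direction, 2 SKO BMT libraries had Wwox at 2.39% and 2.84% of the control mean. Trp53 stood at 63.3% and 72.1% in 2 of the DKO BMT libraries of the first set and at 1.35% to 36.1% in all other knockout libraries. The library SKO tumor 2 had the fewest genes at 1 TPM or more of all 37 (11001), 5.33 TPM of Myc against 37.2 and 65.0 TPM in the other SKO tumor libraries, and 26.8% of its TPM in the mitochondrial genome. Of 16 leukocyte markers such as Ptprc, Csf1r and Lyz2, all 16 were at 1 TPM or more in the 3 control libraries of the second set, whose mean log2 level was 8.68 to 8.90, while in 16 of the 18 knockout libraries of that set 1 to 5 were and the level was 0.27 to 0.89. The remaining 2, SKO BMT 2 and DKO BMT 2, had all 16 at 1 TPM or more, with mean log2 levels of 5.75 and 4.73. In each comparison with control BM in the second set 15 or 16 of the 16 markers fell, so that in that set genotype and the kinds of cells in the culture cannot be told apart. In the first set all 16 were detected in every library but DKO tumor 2 and 3, where 2 and 4 were, 10 of the 16 fell in tumor cells, and none were called in yBM or BMT cells. Of the 10 mesenchymal stromal markers, 9 or 10 were at 1 TPM or more in each library. In such bulk samples, fewer cells of a type and less RNA per cell cannot be told apart.

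In the first set the summed level of the 82 genes was lower in control BM than in DKO yBM and DKO BMT. In the control libraries they took 1.49% to 1.56% of the TPM outside the mitochondrial genome, a mean of 1.53% ± 0.04 (SD, n = 4). DKO yBM cells were at 1.76% to 2.02% (n = 6) and DKO BMT cells at 1.80% to 2.30% (n = 3), both above all of the control libraries, whereas DKO tumor cells, at 1.42%, 1.81% and 1.85%, reached below them. In the second set the control libraries were at 1.71%, 2.13% and 2.34%. SKO yBM cells were at 2.32% to 2.52% and DKO yBM cells at 2.53% to 2.73%, and these ranges do not overlap. DKO yBM alone lay wholly above the controls, while the ranges of SKO yBM and of the BMT and tumor groups all overlapped that of the controls. The highest value, 3.81%, came from SKO tumor 2. The genes of the mitochondrial genome took 5.32% to 32.5% of all TPM, with 32.5% in the first control column of the second set, and this share moved widely within groups.

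**Figure D1:**
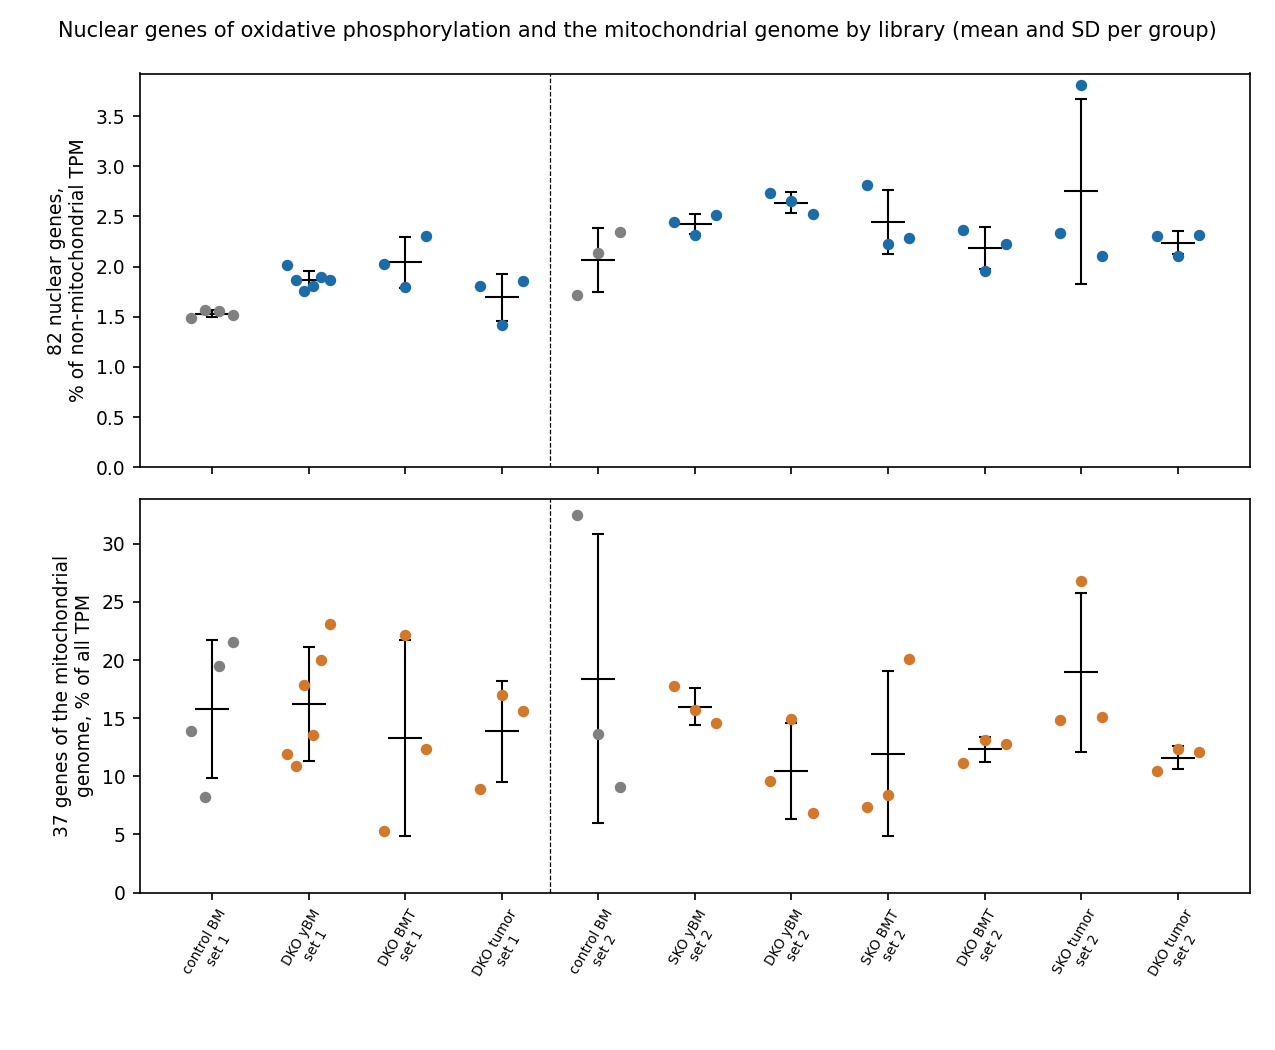
Share of TPM by library, with 1 point a library and the mean and SD of each group in black (control BM in grey). The upper panel gives the 82 nuclear genes as a percent of TPM outside the mitochondrial genome and the lower panel the 37 genes of the mitochondrial genome as a percent of all TPM. DKO yBM and DKO BMT of set 1 lie above their controls, which sit between 1.49% and 1.56%.

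Young marrow cells of double knockout mice were compared with control BM first, to ask what had changed before a tumor was present. Single subunits of complex I rose, the restricted isoform Cox6b2 fell, and most genes did not pass the test. The test was limma on log2(TPM + 1), with p-values adjusted by the Benjamini-Hochberg method over all genes tested in the set and a call at an adjusted p under 0.05. On this scale the change of a gene of few TPM is understated. In the first set 6 of the 78 genes rose and 1 fell, 7 in all, against 7.81% of the 14404 genes tested. By direction, 1.67% of all genes rose and 6.14% fell. The median log2 difference of the 78 genes was 0.18, with 61 above 0 (78.2%), while the median of all genes was -0.22, with 34.3% above 0. With the TPM rescaled by median ratios the median of the 78 genes was 0.45 and that of all genes 0.00, and 20 of the 78 rose and 1 fell, where 5.98% of all genes rose and 3.63% fell. In 12 genes all DKO yBM libraries lay above all control libraries and in 3 all below, against 3.19% and 11.1% of all genes.

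By gene name, complex I held 5 of the 6 genes that rose, with Ndufa4 counted among them. Ndufa12, an accessory subunit of complex I, was at 28.3, 41.4, 24.6 and 19.5 TPM in control BM and at 45.3 to 74.7 TPM (median 53.4) in DKO yBM. The groups did not overlap, and Ndufa12 was higher by 0.98 ± 0.23 (SE), adjusted p = 0.0255 on the log2 scale by limma. Ndufa4, named for complex I but known today as a subunit found with complex IV, was at 189, 158, 206 and 203 TPM in control BM and at 278 to 385 TPM (median 316) in DKO yBM. All 6 libraries were above the controls, with a log2 difference of 0.76 ± 0.18 (SE), adjusted p = 0.0268 by limma. Ndufs6, an accessory subunit close to the NADH-oxidising arm, was at 119, 139, 107 and 99.3 TPM in control BM and 141 to 202 TPM (median 182) in DKO yBM. Its groups did not overlap either, and the log2 difference was 0.63 ± 0.15 (SE), adjusted p = 0.0282 by limma. Ndufa5, an accessory subunit of the same arm, was at 168, 131, 161 and 135 TPM in control BM and 180.4 to 306 TPM (median 269.5) in DKO yBM, a log2 difference of 0.78 ± 0.21 (SE), adjusted p = 0.0401 by limma, again with no overlap. For Ndufs5, a small accessory subunit, the control values of 407, 385, 299.6 and 294 TPM overlapped those of DKO yBM, 376 to 907 TPM (median 602). The fitted log2 difference was 0.83 ± 0.22 (SE), adjusted p = 0.0391 by limma.

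In the ATP synthase, Atp5h, which encodes subunit d of the peripheral stalk, was at 449, 547, 411 and 392 TPM in control BM and 544 to 755 TPM (median 679) in DKO yBM. The highest control library lay just above the lowest DKO yBM library, and the log2 difference was 0.56 ± 0.16 (SE), adjusted p = 0.0456 by limma. In complex IV, Cox6b2, the isoform of Cox6b1 best known from testis, was at 11.9, 7.19, 5.04 and 12.2 TPM in control BM and at 0.660 to 2.33 TPM (median 0.988) in DKO yBM. Every DKO yBM library was below every control, and Cox6b2 fell, with a log2 difference of -2.17 ± 0.34 (SE), adjusted p = 0.00784 by limma. The mean leukocyte marker level ran from 4.32 to 8.11 in these DKO yBM libraries and from 6.26 to 8.503 in the controls. With that level as a covariate, a setting added after the data were seen, Ndufa12 (0.93, adjusted p = 0.0216 by limma) and Cox6b2 (-2.07, adjusted p = 0.00423) were still called, with 8 genes higher and 1 lower, against 2.19% and 9.23% of all genes. In a fit without the 7 libraries of this set whose Wwox went against the label (5 of yBM, 1 of BMT and 1 of tumor cells) only 1 DKO yBM library was left, assumed to vary like the other groups, and none of the 78 genes was called, against 0.029% of all genes higher and 0.0363% lower, with log2 differences of 1.05 for Ndufa12 (adjusted p = 0.476 by limma) and -2.48 for Cox6b2 (adjusted p = 0.345). Leaving out 1 library at a time gave 1 to 7 calls.

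In marrow cells of tumor-bearing double knockout mice, the shift in level was wider over the genes. Of the 78 genes 71 were above 0 (91.0%, against 45.9% of all genes), with a median of 0.43 against -0.06. The medians were 0.38 for complex I, 0.64 for complex III, 0.53 for complex IV and 0.47 for the ATP synthase. In DKO BMT 3 genes rose and 1 fell, against 2.35% of all genes called, 0.958% higher and 1.4% lower. In 22 genes the DKO BMT libraries were all above the controls, against 7.14% of all genes, and in 1 they were all below, against 9.64%. This comparison shares its control libraries with the yBM and tumor comparisons of the first set, so their values are given side by side and are not independent.

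The DKO BMT libraries had Ndufa12 at 115, 106 and 154 TPM, all above the highest control of 41.4 TPM. The log2 difference was 2.13 ± 0.28 (SE), adjusted p = 0.00265 by limma. Atp5c1, the gamma subunit that turns inside the ATP synthase, was at 218, 272, 232 and 218 TPM in control BM and 379, 348 and 476 TPM in DKO BMT. The groups did not overlap, with a log2 difference of 0.76 ± 0.18 (SE), adjusted p = 0.0418 by limma. Cox4i2, the isoform of Cox4i1 known from lung and from low oxygen, was at 0.773, 2.35, 1.65 and 2.49 TPM in control BM and 4.00, 5.99 and 8.76 TPM in DKO BMT, and the log2 difference was 1.36 ± 0.34 (SE), adjusted p = 0.0488 by limma. Under other settings that call, for a gene of few TPM, was made in 4 of 17. Cox6b2 was at 0.169, 0.330 and 0.534 TPM in DKO BMT, below all controls, with a log2 difference of -2.84 ± 0.41 (SE), adjusted p = 0.00505 by limma. Of the core subunits named whatever their values, Uqcrc1 of complex III had a log2 difference of 1.07 ± 0.29 (SE), adjusted p = 0.0648 by limma, Cox5a of complex IV 0.73 ± 0.22 (SE), adjusted p = 0.0859, and the alpha subunit gene Atp5a1 0.77 ± 0.27 (SE), adjusted p = 0.122. These 3 did not pass the test. Without the 2 libraries whose Trp53 went against the label, a single DKO BMT library was left, that with Wwox at 164% of the control mean, and was assumed to vary like the other groups. Then 2 of the 78 genes were called higher and 1 lower, against 1.2% and 0.559% of all genes. Without DKO BMT 1 alone, whose Wwox went against the label, Ndufa12 (2.18, adjusted p = 0.0122 by limma) and Cox6b2 (-2.75, adjusted p = 0.0226) were called. In the fit without all 7 such libraries of the set Cox6b2 alone was called (adjusted p = 0.04 by limma), with Ndufa12 at an adjusted p of 0.0587. Without DKO BMT 3, too, these were the 2 called.

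In the tumor cells of the first set only Ndufa12 rose and only Cox6b2 fell, against 3.39% of all genes called, 1.19% higher and 2.21% lower. The median of the 78 genes was 0.14, with 54 above 0 (69.2%), against -0.09 and 44.3% for all genes. Ndufa12 was at 75.3, 98.5 and 147 TPM in the 3 tumor libraries, none of them within the control range, and its log2 difference was 1.87 ± 0.28 (SE), adjusted p = 0.00968 by limma. Cox6b2 was at 4.70, 0.894 and 0.743 TPM, with a log2 difference of -1.85 ± 0.41 (SE), adjusted p = 0.0353 by limma. The highest of the 3, at 4.70 TPM, was DKO tumor 1, the only tumor library with a high leukocyte level (6.42, against 0.51 and 0.78). With that level as a covariate neither gene was called (Ndufa12 1.47, adjusted p = 0.133, and Cox6b2 -1.07, adjusted p = 0.379, by limma). In that fit nearly all genes lost their calls, with 0.0% of all genes called higher and 0.0903% lower. The tumor libraries were all above the controls in 2 genes and all below in 5, against 4.97% and 10.6% of all genes. Without DKO tumor 1 alone, whose Wwox was at 101% of the control mean, both stayed called (Ndufa12 2.09, adjusted p = 0.00213, and Cox6b2 -2.40, adjusted p = 0.00294, by limma). Cox6b2 lost its call without DKO tumor 2 (adjusted p = 0.0611 by limma) or DKO tumor 3 (adjusted p = 0.164).

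Between tumor and marrow of tumor-bearing mice in the first set none of the 78 genes was called by limma, and 13 had an unadjusted p under 0.05. Of all genes 0.257% were called, 0.0555% higher and 0.201% lower. Of the 78 genes 8 were above 0, with a median of -0.24 against 0.00 for all genes. All 17 genes of the ATP synthase and all 8 of complex III had a lower fitted level in tumor cells, with medians of -0.35 and -0.46. The smallest p-values belonged to Cox7a1, the isoform of heart and skeletal muscle (-2.12 ± 0.52 (SE), adjusted p = 0.0761 by limma), Cox4i2 (-1.31 ± 0.36 (SE), adjusted p = 0.101) and Uqcrfs1, the iron-sulfur subunit of complex III (-0.76 ± 0.22 (SE), adjusted p = 0.116). Uqcrfs1 stood at 79.1, 58.5 and 81.9 TPM in DKO BMT and at 38.9, 37.7 and 51.6 TPM in DKO tumor cells, with no overlap. The study describes the BMT cells as paired with the tumors, though no label ties a number to a mouse. In the same-numbered libraries 1, 2 and 3 the summed share of the 82 genes was 2.03%, 1.80% and 2.30% in BMT and 1.81%, 1.42% and 1.85% in tumor cells, lower in tumor cells in all 3. With only these 6 libraries and the number as a block none of the 78 genes was called by limma, nor was any other gene. In 1 gene the tumor libraries were all above the BMT libraries and in 7 all below, against 5.32% and 7.82% of all genes.

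Age made no difference that passed the test in DKO yBM. Between 4 and 1.5 months none of the 78 genes was called by limma, 1 had an unadjusted p under 0.05, and 0.00694% of all genes were called. The median log2 difference was -0.14, close to the -0.11 of all genes. The smallest p belonged to Ndufab1, the mitochondrial acyl carrier protein, at -0.49 ± 0.21 (SE), adjusted p = 1.0 by limma. In 7 genes the libraries of 4 months were all below those of 1.5 months, against 4.67% of all genes, and in none all above, against 1.28%.

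**Figure D2:**
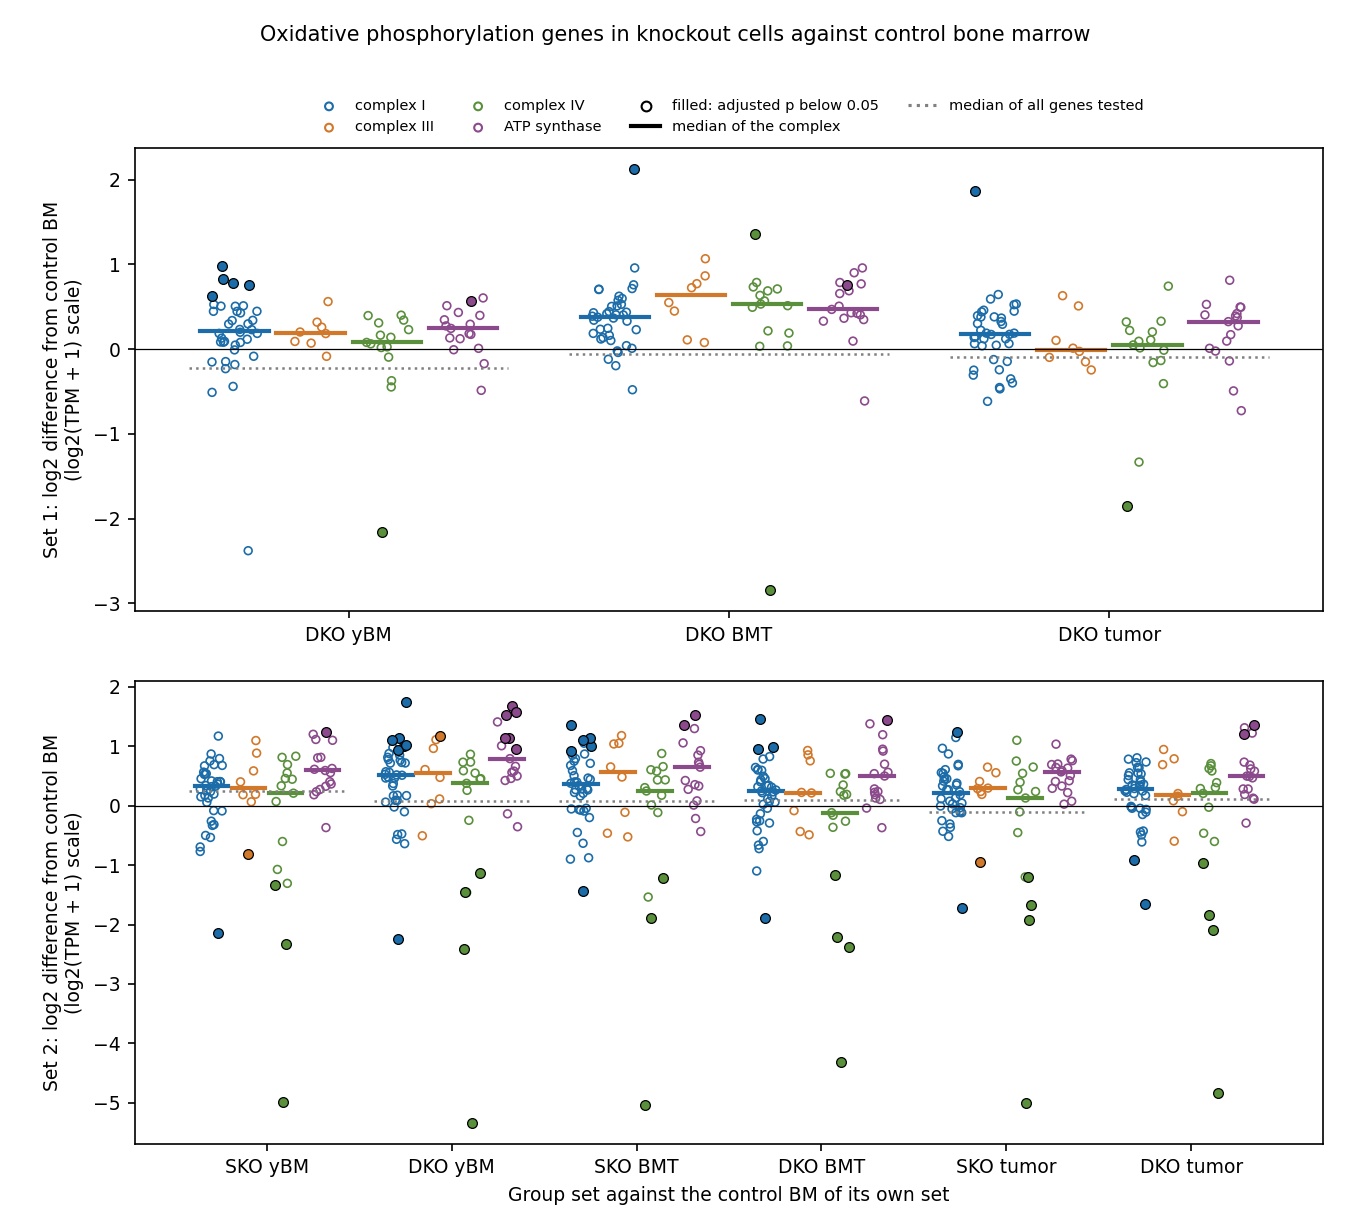
Log2 difference of each of the 78 tested genes from the control BM of its own set, on the log2(TPM + 1) scale, with set 1 above and set 2 below. Each point is 1 gene, filled where the adjusted p was below 0.05, bars are medians of a complex and dotted lines the median of all genes tested. The lowest filled point of each group is Cox6b2, and the medians of the ATP synthase are the highest of the 4 complexes in all 6 groups of set 2, at 0.49 to 0.79.

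The second set had its own control libraries and adds the single knockout. Against them, 4 restricted isoforms together with Cox6b1 fell in most or all of the groups. Genes of complex I and of the ATP synthase rose in DKO yBM and in both BMT groups, while in SKO yBM Atp5b alone rose. Nearly all of these calls were lost without the first control column, and some of them without the second. Without the first control column no gene was called higher in SKO yBM, SKO BMT, DKO BMT or either tumor group. In DKO yBM Atp5b (1.22, adjusted p = 0.0316 by limma) and Ndufa12 (1.53, adjusted p = 0.013) were the 2 that still rose, while 3 to 5 genes a group still fell. Fewer of all genes rose in that fit as well, 3.28% in DKO yBM, 3.07% in DKO tumor and 0.624% to 1.32% in the other groups, while 5.77% to 8.03% fell. Without the second control column 7 genes rose in DKO yBM, 4 in SKO BMT, 2 in DKO BMT and 1 in DKO tumor, and none in SKO yBM or SKO tumor. Of all genes 6.14%, 2.48%, 2.13%, 4.76%, 2.84% and 0.979% rose there, in that order. With all 3 control libraries the counts were as follows. In SKO yBM 1 gene rose and 5 fell, against 13.5% of the 14458 genes tested (5.78% higher, 7.77% lower). In DKO yBM 13 rose and 5 fell, against 19.5% (9.34% and 10.2%). In SKO BMT 7 rose and 4 fell, against 13.4% (5.0% and 8.36%), and in DKO BMT 4 rose and 5 fell, against 12.0% (4.22% and 7.79%). In SKO tumor cells 1 rose and 6 fell, against 11.6% (2.01% and 9.57%), and in DKO tumor cells 2 rose and 6 fell, against 17.2% (7.71% and 9.48%). The shares of the 78 genes that rose were therefore near or below the share of all genes, except in DKO yBM and SKO BMT. All 6 comparisons share the same 3 control libraries.

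The medians of the 78 genes were 0.35 in SKO yBM, 0.52 in DKO yBM, 0.38 in SKO BMT, 0.23 in DKO BMT, 0.29 in SKO tumor and 0.29 in DKO tumor cells, where the medians of all genes were 0.24, 0.07, 0.07, 0.09, -0.11 and 0.11. The ATP synthase had the highest median of the 4 complexes in each of the 6 groups, from 0.49 in DKO tumor to 0.79 in DKO yBM. The first control column held the lowest level of many of these genes, and without it the medians of DKO BMT and SKO tumor turned to -0.05 and -0.05. In that library the mitochondrial genome took 32.5% of TPM. In DKO yBM 31 of the 78 genes had all libraries above and 8 all below the controls, against 24.9% and 20.2% of all genes, and in SKO yBM 19 and 11, against 30.9% and 17.2%. The counts were 14 and 8 in SKO BMT, against 17.8% and 16.8%, and 7 and 9 in DKO BMT, against 15.9% and 13.5%. In SKO tumor cells they were 5 and 8, against 7.46% and 15.5%, and in DKO tumor cells 12 and 10, against 21.8% and 17.9%.

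Among the core subunits of complex I, Ndufv1, which binds NADH, was at 44.9, 62.0 and 68.8 TPM in control BM. Its values were 121, 111 and 121 TPM in DKO yBM, 149.6, 119 and 108 TPM in SKO BMT and 137, 94.3 and 118 TPM in DKO BMT. None of these overlapped the controls, and Ndufv1 rose in DKO yBM (1.02 ± 0.30 (SE), adjusted p = 0.0237 by limma), SKO BMT (1.10 ± 0.30 (SE), adjusted p = 0.0211) and DKO BMT (0.98 ± 0.30 (SE), adjusted p = 0.0391). It did not pass the test in tumor cells. Ndufs1, the largest core subunit, was not called in any group, with log2 differences of -0.01 to 0.40. Ndufs3, a core subunit, rose in SKO BMT (0.92 ± 0.27 (SE), adjusted p = 0.0326 by limma). The accessory subunit genes Ndufa9, in DKO yBM and SKO BMT, and Ndufb11, in DKO yBM, rose as well. These 3 are named after their values were seen.

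Ndufa12 had values of 56.9, 79.8 and 102 TPM in control BM of the second set and of 273, 229 and 288 TPM in DKO yBM. The groups were far apart, with a log2 difference of 1.75 ± 0.34 (SE), adjusted p = 0.00159 by limma. In SKO yBM, at 96.2, 115 and 129 TPM, it overlapped the controls and was not called (0.54 ± 0.34 (SE), adjusted p = 0.313 by limma). It rose in SKO BMT, at 221, 171 and 209.5 TPM (1.35 ± 0.34 (SE), adjusted p = 0.0139 by limma), and in DKO BMT, at 181, 139.5 and 389 TPM (1.46 ± 0.34 (SE), adjusted p = 0.00863). In tumor cells it was at 118, 187 and 90.2 TPM in SKO and 122, 94.9 and 123 TPM in DKO, with no call. Ndufa4 rose in DKO yBM, at 708, 764 and 502 TPM against 173, 316 and 460.2 TPM in control BM (1.14 ± 0.38 (SE), adjusted p = 0.0441 by limma). It also rose in SKO tumor cells, at 639, 1231 and 426 TPM, although 1 of those 3 libraries lay within the control range (1.24 ± 0.38 (SE), adjusted p = 0.0418 by limma). The highest value came from SKO tumor 2, and without that library Ndufa4 was not called (0.83, adjusted p = 0.172 by limma). Ndufv3, an accessory subunit of the NADH-oxidising arm, fell in DKO tumor cells, at 165, 116 and 157 TPM against 229, 310.2 and 281 TPM in control BM (-0.91 ± 0.30 (SE), adjusted p = 0.046 by limma).

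In complex III the core subunits moved in different directions. Uqcrc1 was at 58.8, 123 and 138 TPM in control BM and 261, 228 and 194 TPM in DKO yBM, without overlap, and rose there (1.17 ± 0.36 (SE), adjusted p = 0.0277 by limma). Uqcrc2, its partner, was at 76.5, 97.9 and 89.6 TPM in control BM, 48.7, 43.7 and 55.5 TPM in SKO yBM and 47.7, 43.2 and 43.4 TPM in SKO tumor cells. Both SKO groups lay below the controls, and Uqcrc2 fell in SKO yBM (-0.82 ± 0.22 (SE), adjusted p = 0.0196 by limma) and SKO tumor (-0.95 ± 0.22 (SE), adjusted p = 0.00736). In DKO yBM it was at 60.2, 49.4 and 77.2 TPM, with 1 library inside the control range and no call (-0.51 ± 0.22 (SE), adjusted p = 0.12 by limma). Uqcrfs1 was not called, with log2 differences of 0.24 to 1.11 over the 6 groups.

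Complex IV was the complex in which isoforms stood out. None of its 15 tested genes, grouped by name and thus without Ndufa4, rose in the second set. Cox6b2 was at 12.9, 84.5 and 81.1 TPM in control BM and fell in all 6 knockout groups. It was at 0.349, 0.570 and 0.469 TPM in SKO yBM (-4.98 ± 0.65 (SE), adjusted p = 2.11e-05 by limma) and at 0, 0.485 and 0 TPM in DKO yBM (-5.33 ± 0.65 (SE), adjusted p = 8.96e-06). In SKO BMT cells it had 0.388, 1.01 and 0 TPM (-5.03 ± 0.65 (SE), adjusted p = 2.43e-05 by limma), and in DKO BMT cells 0.708, 6.25 and 0 TPM (-4.32 ± 0.65 (SE), adjusted p = 0.000125). In tumor cells it was at 0, 0.354 and 1.19 TPM in SKO (-5.00 ± 0.65 (SE), adjusted p = 1.92e-05 by limma) and 1.06, 0.280 and 0.606 TPM in DKO (-4.83 ± 0.65 (SE), adjusted p = 2.88e-05). None of the 18 knockout libraries reached the lowest control of 12.9 TPM. The highest value of each BMT group, 1.01 and 6.25 TPM, was that of SKO BMT 2 and DKO BMT 2, the libraries in which all 16 leukocyte markers were detected. The part of the leukocyte markers in the fall of Cox6b2 was not tested in this set.

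Cox6b1, the form of the same subunit used by most tissues, was at 756, 669.7 and 545 TPM in control BM. It was at 276, 239.7 and 253 TPM in SKO yBM (-1.34 ± 0.31 (SE), adjusted p = 0.00696 by limma) and 289, 275 and 329.7 TPM in DKO yBM (-1.13 ± 0.31 (SE), adjusted p = 0.0165). In BMT it was at 382, 293 and 192 TPM in SKO (-1.23 ± 0.31 (SE), adjusted p = 0.0137 by limma) and 310.1, 420.4 and 188 TPM in DKO (-1.16 ± 0.31 (SE), adjusted p = 0.0194). In tumor cells it was at 223, 353 and 282 TPM in SKO (-1.21 ± 0.31 (SE), adjusted p = 0.0147 by limma) and 326, 267 and 429 TPM in DKO (-0.96 ± 0.31 (SE), adjusted p = 0.0413). All 18 knockout libraries were thus below the lowest control, and Cox6b1 fell in all 6 groups. Without the first control column it was called in SKO yBM alone (-1.24, adjusted p = 0.0363 by limma), with log2 differences of -1.12 to -0.85 and adjusted p of 0.0575 to 0.126 in the other 5 groups. The first set gave no such difference, with log2 differences of 0.08 in DKO yBM, 0.04 in DKO BMT and -0.41 in DKO tumor, none of which passed the test.

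The rest of the isoforms were low. Ndufa4l2, the relative of Ndufa4 known to rise at low oxygen, was at 2.35, 5.35 and 4.99 TPM in control BM, 0.134, 0.183 and 0.0840 TPM in SKO yBM and 0.0495, 0.0878 and 0.0484 TPM in DKO yBM. It fell in all 6 groups, from -2.24 ± 0.29 (SE), adjusted p = 1.78e-05 in DKO yBM to -1.44 ± 0.29 (SE), adjusted p = 0.00243 in SKO BMT on the log2 scale by limma. Its exons overlap those of Shmt2 on the opposite strand, and the strand setting of the authors' counting was not given. In the first set the controls were at 0.521, 108, 0.957 and 1.88 TPM, so 1 library decided the control mean, and no call was made. Cox4i2 was at 3.36, 7.79 and 9.17 TPM in control BM and at 0.818, 0.495 and 0.141 TPM in SKO yBM and 0.501, 0.147 and 0.501 TPM in DKO yBM. It fell in all groups but SKO BMT, with log2 differences from -2.41 in DKO yBM (adjusted p = 0.00535 by limma) to -1.93 in SKO tumor (adjusted p = 0.0287), which is the direction opposite to that in DKO BMT of the first set. In SKO BMT, at 1.66, 4.97 and 0 TPM, the highest value was that of SKO BMT 2. Cox7a1 was at 3.96, 6.16 and 8.09 TPM in control BM and 0, 0.316 and 0.770 TPM in DKO BMT (-2.37 ± 0.49 (SE), adjusted p = 0.00288 by limma), and it fell in all groups but SKO yBM. Cox6a2, the muscle form of Cox6a1, was not called in any group. The widely expressed Cox4i1, Cox5a, Cox5b, Cox6a1, Cox7a2, Cox7b and Cox8a, and Cox7a2l, a relative of Cox7a2, were not called in any comparison of either set. Cox4i1 differed by -0.03 (DKO tumor) to 0.55 (DKO yBM) in the second set, and Cox5b by 0.13 (SKO tumor) to 0.30 (SKO BMT).

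In the ATP synthase no gene fell in either set. Atp5b was at 178, 411 and 506 TPM in control BM, at 668, 742 and 983 TPM in SKO yBM and at 1050, 903 and 1278 TPM in DKO yBM. Both knockout groups were above the controls, and Atp5b rose in SKO yBM (1.24 ± 0.38 (SE), adjusted p = 0.037 by limma) and in DKO yBM (1.67 ± 0.38 (SE), adjusted p = 0.00469). It rose in SKO BMT, at 1110, 756 and 746 TPM (1.36 ± 0.38 (SE), adjusted p = 0.0237 by limma), DKO BMT, at 1008, 665 and 1121 TPM (1.44 ± 0.38 (SE), adjusted p = 0.0168), and DKO tumor, at 1121, 700.4 and 798 TPM (1.36 ± 0.38 (SE), adjusted p = 0.019). In SKO tumor cells it was at 745, 332 and 572 TPM, overlapping the controls, with no call (0.64 ± 0.38 (SE), adjusted p = 0.329 by limma). Atp5c1 was at 132, 237 and 263 TPM in control BM and 455, 367 and 533 TPM in DKO yBM, with no overlap, and rose there (1.14 ± 0.29 (SE), adjusted p = 0.0113 by limma). Of the 3 genes of subunit c, which forms the rotating ring and whose mature protein is the same from each gene, Atp5g1 was at 38.9, 176 and 217 TPM in control BM and 379, 323 and 333 TPM in DKO yBM (1.58 ± 0.48 (SE), adjusted p = 0.0279 by limma). Atp5g3 was at 124, 274 and 379.8 TPM in control BM and 688, 612 and 742 TPM in DKO yBM (1.53 ± 0.40 (SE), adjusted p = 0.0117 by limma). Both rose, and Atp5g2, with a log2 difference of 1.41 ± 0.54 (SE), adjusted p = 0.0744 by limma, did not pass the test. Atp5g1 also rose in SKO BMT (1.53 ± 0.48 (SE), adjusted p = 0.0428 by limma) and Atp5g3 in DKO tumor (1.196 ± 0.40 (SE), adjusted p = 0.045). Atp5a1 rose in DKO yBM (0.95 ± 0.32 (SE), adjusted p = 0.0465 by limma), as did Atp5d, the delta subunit of the central stalk, which is named after its values were seen.

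**Figure D3:**
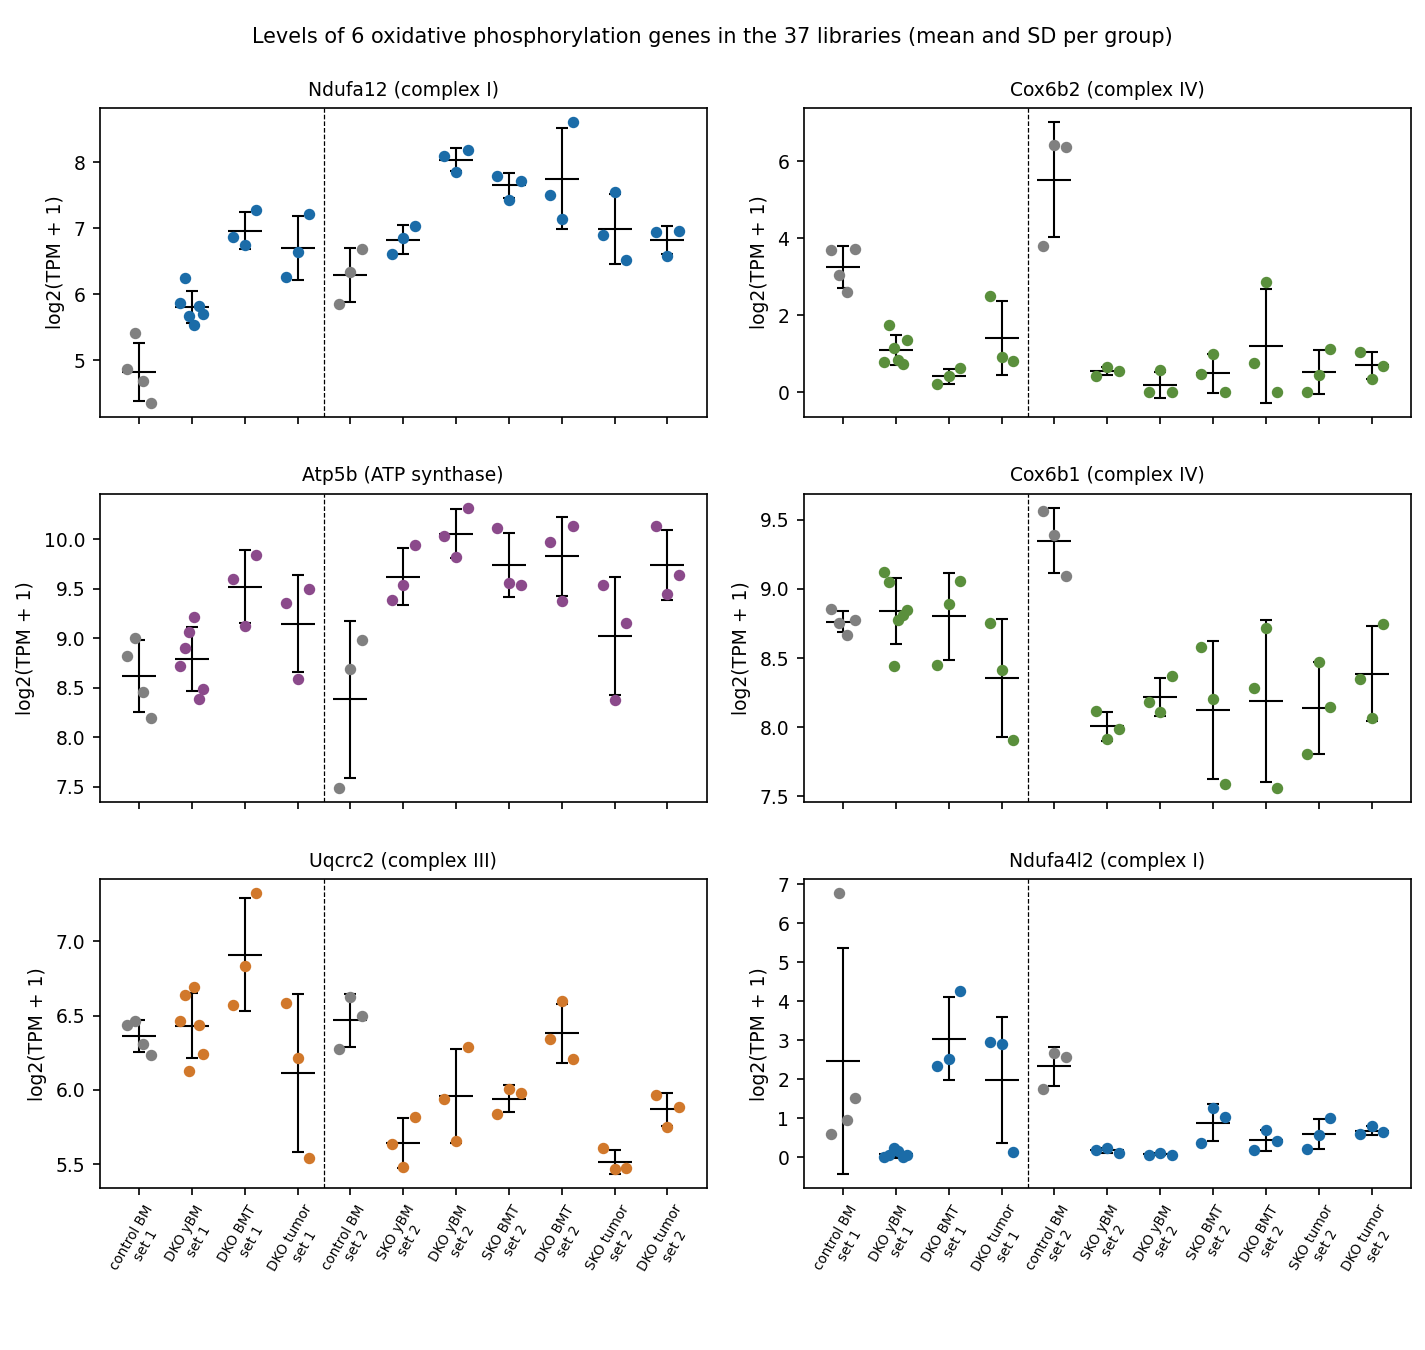
Level of 6 genes in all 37 libraries as log2(TPM + 1), 1 point a library, with the mean and SD of each group in black, control BM in grey and the sets divided by a dashed line. Cox6b2 lies below the controls in every knockout group of both sets, Cox6b1 in those of set 2 alone, and Ndufa12 of DKO yBM in set 2 stands above that of SKO yBM.

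Since both sets had controls of their own, the double knockout groups were set side by side across them. In DKO yBM 54 of the 78 genes (69.2%) had a log2 difference above 0 in both sets and 9 (11.5%) below 0 in both. Of the 13585 genes tested in both sets 24.9% were above 0 in both and 38.4% below. In DKO BMT 51 (65.4%) were above 0 in both and 5 (6.4%) below, against 32.5% and 31.9% of all genes. In DKO tumor cells 44 (56.4%) were above and 13 (16.7%) below, against 36.9% and 37.4%. Genes called in the same direction in both sets were Ndufa12, Ndufa4 and Cox6b2 in DKO yBM, Ndufa12 and Cox6b2 in DKO BMT, and Cox6b2 in DKO tumor cells. The same overlap was not counted over all genes, so it is not known whether these numbers are unusual. These counts describe the 78 genes and carry no test.

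What the loss of Wwox added to that of Trp53 was asked by setting double against single knockout cells within the second set, without the control libraries. None of the 78 genes was called by limma in yBM, where 1 had an unadjusted p under 0.05 and 0.0207% of all genes were called, 0.0138% higher and 0.00692% lower. Yet 60 of the 78 genes (76.9%) were above 0 in DKO yBM, with a median of 0.23, against 39.4% and -0.10 for all genes. In 29 genes all 3 DKO yBM libraries were above all 3 SKO yBM libraries, against 6.72% of all genes, and in 2 all below, against 11.2%. Of those 29, 16 belonged to complex I, 1 to complex III, 2 to complex IV and 10 to the ATP synthase. The mean leukocyte level was low in all 6 libraries, with 2 to 4 of the 16 markers at 1 TPM or more in each. None of the 16 was called between these groups, but with so few calls among all genes this cannot decide on the mix of cells.

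Ndufa12 had the lowest p of the 78 genes, at 96.2, 115 and 129 TPM in SKO yBM and 273, 229 and 288 TPM in DKO yBM, with no overlap and a log2 difference of 1.21 ± 0.34 (SE), adjusted p = 1.0 by limma. Atp5c1 was at 299.6, 282 and 348 TPM in SKO yBM and 455, 367 and 533 TPM in DKO yBM, above in all 3 libraries (0.53 ± 0.29 (SE), adjusted p = 1.0 by limma). Cox4i1 was at 842, 742 and 779.5 TPM in SKO yBM and 1122, 901 and 1306 TPM in DKO yBM, again without overlap (0.48 ± 0.31 (SE), adjusted p = 1.0 by limma). Atp5g1 differed by 0.38 ± 0.48 (SE), adjusted p = 1.0 and Atp5g3 by 0.42 ± 0.40 (SE), adjusted p = 1.0 by limma, each with the 3 DKO libraries above the 3 SKO libraries. The 2 genes in which DKO yBM lay wholly below were Atp5s, a factor linked to the coupling of the ATP synthase, and Atp5j, of its peripheral stalk, which are named after their values were seen. Without the genes of the mitochondrial genome in the TPM the median of the 78 genes was 0.14, and with median-ratio scaling 0.37. The mitochondrial mRNAs summed to a mean of 158000 ± 16240 TPM (SD, n = 3) in SKO yBM and 101400 ± 41850 TPM in DKO yBM.

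In BMT and tumor cells the median of the 78 genes was below 0. In DKO against SKO BMT 14 of the 78 genes were above 0, with a median of -0.16 against 0.00 for all genes. None was called, 1 had an unadjusted p under 0.05, and 0.0% of all genes were called by limma. The smallest p was that of Ndufa6, an accessory subunit of complex I (-0.63 ± 0.29 (SE), adjusted p = 1.0 by limma). In 1 gene the DKO BMT libraries were all above and in 4 all below the SKO BMT libraries, against 1.67% and 2.03% of all genes. Without the 5 libraries of this set whose Wwox went against the label, 2 of SKO BMT and all 3 of DKO tumor, 1 SKO BMT library was left, the median was -0.42 and no gene was called. In DKO against SKO tumor cells 37 of the 78 genes were above 0, with a median of -0.04, while 68.6% of all genes were and their median was 0.25. None was called, 1 had an unadjusted p under 0.05, and 0.0% of all genes were called by limma. Cox5a had the smallest p, at 309, 134 and 204 TPM in SKO and 451, 357 and 285 TPM in DKO tumor cells, with overlap (0.81 ± 0.35 (SE), adjusted p = 0.585 by limma). In 3 genes the DKO tumor libraries lay wholly above and in none wholly below, against 4.8% and 3.2% of all genes. All 3 libraries labelled DKO tumor had Wwox above the control mean, so no value without them could be had. The test of whether the change from yBM to tumor differed between the genotypes called none of the 78 genes by limma, with 1 at an unadjusted p under 0.05 and 0.0138% of all genes called.

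**Figure D4:**
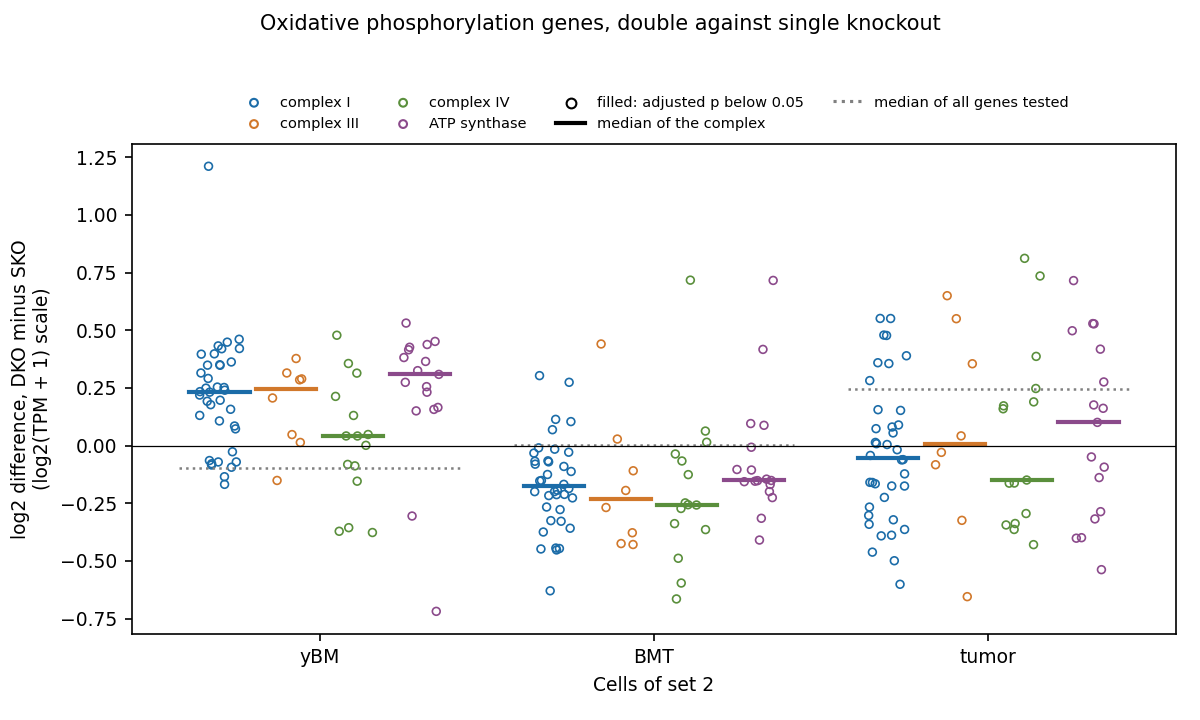
Log2 difference of each of the 78 genes between DKO and SKO cells of set 2 on the log2(TPM + 1) scale. Each point is 1 gene, bars are medians of a complex and dotted lines the median of all genes tested, and no point is filled because none passed the test. In yBM 60 of the 78 genes lie above 0, in BMT 14 and in tumor cells 37.

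Other genes of the pathway were taken from lists of 4 genes of complex II, 2 electron carriers, 37 assembly factors of complexes I, III and IV, 3 of the ATP synthase, the inhibitor Atpif1 and 9 regulators. In the first set Coa7, an assembly factor of complex IV, rose in DKO yBM (1.25 ± 0.25 (SE), adjusted p = 0.0159 by limma) and DKO tumor (1.26 ± 0.29 (SE), adjusted p = 0.039), and Ndufaf6, an assembly factor of complex I, rose in DKO yBM (1.10 ± 0.32 (SE), adjusted p = 0.0493) and DKO BMT (1.72 ± 0.38 (SE), adjusted p = 0.0351). Atpif1, which blocks the ATP synthase from running backwards, rose in DKO yBM (0.62 ± 0.18 (SE), adjusted p = 0.0453 by limma), and Esrra, a nuclear receptor that activates genes of mitochondria, fell there (-0.87 ± 0.23 (SE), adjusted p = 0.0378). Sdhb, the iron-sulfur subunit of complex II, rose in DKO BMT (1.18 ± 0.27 (SE), adjusted p = 0.0406 by limma), and Cox10, which makes the heme of complex IV, rose in DKO BMT (1.22 ± 0.30 (SE), adjusted p = 0.0454) and DKO tumor (1.13 ± 0.30 (SE), adjusted p = 0.0488). No other gene of these lists was called in the first set.

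In DKO yBM of the second set, where 9.34% of all genes rose and 10.2% fell, 3 of 14 assembly factors of complex I rose and 1 fell, 1 of 6 of complex III fell, 2 of 17 of complex IV rose and 1 fell, both electron carriers rose, 1 of 7 regulators rose, and none of the 4 genes of complex II was called. In DKO tumor cells, where 7.71% of all genes rose and 9.48% fell, the counts were 3 and 1 for complex I, 0 for complex III, 2 and 1 for complex IV, and both electron carriers and 2 regulators rose. Coa4, an assembly factor of complex IV, was at 20.3, 20.1 and 15.7 TPM in control BM and at 3.12, 1.79 and 2.07 TPM in SKO yBM and 1.74, 2.91 and 4.66 TPM in DKO yBM. It fell in all 6 groups, with log2 differences of -2.58 ± 0.37 (SE), adjusted p = 5.19e-05 in SKO yBM and -2.32 ± 0.37 (SE), adjusted p = 0.000168 in DKO yBM by limma. Tmem126b, an assembly factor of complex I, was at 12.2, 17.7 and 18.8 TPM in control BM and 3.45, 4.67 and 3.20 TPM in DKO yBM, and fell there (-1.84 ± 0.38 (SE), adjusted p = 0.00249 by limma). It was also low in single knockout cells, at 3.87, 4.19 and 5.93 TPM in SKO yBM. In SKO BMT, at 4.09, 3.22 and 4.12 TPM, it fell too. Ecsit, another assembly factor of complex I, and Coa7 rose in SKO BMT, so calls in these lists were not confined to double knockout cells. Cytochrome c1 of complex III is encoded by Cyc1, which was at 30.6, 97.8 and 116 TPM in control BM and 216, 198 and 281 TPM in DKO yBM, without overlap. It rose in DKO yBM (1.69 ± 0.44 (SE), adjusted p = 0.0129 by limma), SKO BMT (1.53 ± 0.44 (SE), adjusted p = 0.0296) and DKO tumor (1.52 ± 0.44 (SE), adjusted p = 0.0249), and Cycs, cytochrome c itself, rose in DKO yBM (1.56 ± 0.46 (SE), adjusted p = 0.0235) and DKO tumor (1.40 ± 0.46 (SE), adjusted p = 0.0444). The first control column, without which most rises of the 78 genes were lost, was the lowest for Cyc1 and for Cycs (24.7 TPM, against 65.0 and 84.0 TPM). Without it 3.28% of all genes rose in DKO yBM and 3.07% in DKO tumor. Among the 7 regulators tested, Pprc1, a coactivator of mitochondrial genes, rose in DKO yBM (1.55 ± 0.50 (SE), adjusted p = 0.0387 by limma), Nrf1 in DKO tumor (1.11 ± 0.37 (SE), adjusted p = 0.0487), and Myc in DKO BMT (2.03 ± 0.62 (SE), adjusted p = 0.0416) and DKO tumor (2.42 ± 0.62 (SE), adjusted p = 0.0122). Pprc1 was lowest in the first control column as well, at 6.55 TPM against 10.9 and 15.1 TPM. Myc was at 12.2, 20.4 and 20.1 TPM in control BM, 66.4, 50.8 and 57.7 TPM in SKO yBM and 65.3, 51.5 and 67.0 TPM in DKO yBM, and neither yBM group passed the test. Between DKO and SKO cells no gene of these lists was called by limma in yBM, BMT or tumor cells.

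The counts could have moved reads between copies of a gene in some cases. Ndufb4c, a processed copy of Ndufb4, was at a mean of 244.8 TPM in control BM of the first set, where Ndufb4 itself was at 27.2 TPM, so the level of Ndufb4 is uncertain. Exons of 30 of the 82 genes overlap exons of another gene, 5 of them on the same strand and 25 on the opposite strand only, and this includes Ndufs6, Uqcrc2 and Atp5a1. Ndufa12, Cox6b1, Cox6b2 and Atp5b have no such overlap.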

How the data were processed

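RNA sequencing of 37 mouse cell cultures was described from 1 deposited table of TPM values. The authors prepared stranded poly-A libraries. Tools listed in the processing notes of the submitters are FastQC, Trim Galore 0.6.1, Salmon and DESeq2, with the build mm39. The deposited TPM values are scaled to 1 fixed total in each library, so they show shares of a library and not its depth, which is unknown, and a large share taken by the mitochondrial genome lowers all other values. No counts were used here, and the DESeq2 test of the study could therefore not be applied. Per-sample columns left unused numbered 0, and 3 control columns of the second set were matched to their group but to no single sample. No 2 libraries were alike enough to be 1 library deposited again (highest correlation 0.9875).

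Each set was fitted apart with limma 3.58.1 (R 4.3.3) on log2(TPM + 1), with trend, all groups of a set in 1 fit and no covariate, over genes at 1 TPM or more in 3 libraries or more. P-values were two-sided and adjusted over all genes tested, with calls at 0.05. The fit was tested on simulated data. Named are the called genes of a comparison where 8 or fewer, otherwise the 4 of smallest p in each direction, together with fixed core subunits and isoforms, of which 1 gene, included in all counts, is not reported here. The genes and lists were chosen with earlier results of these data known. Alternatives were another pseudocount (0.1), no filter, median-ratio and quantile scaling, TPM without the mitochondrial genome, only the compared groups in a fit, the 2 ages apart, a replicate block, and each library left out. Same-numbered DKO BMT and SKO BMT libraries of the second set deviated together (correlations 0.293, 0.291 and 0.381), which no label explains.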

Additional observations from a re-analysis of the deposited data

Results flagged for a closer look

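A library far from the other 3 was looked for in the 4 control BM libraries of the first set, the only group of 4 to 10 similar libraries beside DKO yBM, and such a gap arises by chance in about 1 in 20 groups. It was found for 5 genes of 78 groups tested. Ndufa4l2 was at 107.9 TPM in control BM 2 and at 0.521 to 1.88 TPM in the other 3. In the same library Atp5a1 was at 304.3 TPM, against 225 to 238.3 TPM in the others, and Ndufs3 was at 132.5 TPM, against 88.2 to 95.8 TPM. Cox4i1 was at 507 TPM in control BM 1 and at 615.7 to 634.6 TPM in the others. Cox8b was at 0.331 TPM in control BM 3 and listed at 0 in the other 3. No gene of the 78 was called by the interaction of genotype and tissue in the second set (0 calls by limma, 1 gene at an unadjusted p under 0.05).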

How the results depend on the processing

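No gene called in the main fit changed direction under any alternative run, but which direction held more calls did turn in some. Among single genes, only those called in the main fit were followed in this way, and genes named without a call were not. Of 1607 alternatives of these 121 called values, 1031 kept the call and 576 lost it. The median of the 78 genes kept its sign in 211 of 215 alternatives, the exceptions being DKO BMT and SKO tumor without the first control column of the second set (-0.05 and -0.05, from 0.23 and 0.29) and DKO against SKO tumor without SKO tumor 2 or DKO tumor 2 (0.06 and 0.05, from -0.04). The share of all genes called moved with the settings as well. In DKO yBM of the first set 0.4% rose and 2.17% fell with no filter, and 5.98% and 3.63% with median-ratio scaling. The shares were 3.19% and 10.5% with only the compared groups and 0.0069% and 0.132% with the replicate block. Counts of called genes of the 78 that moved were as follows, and the cause was not tested. In DKO yBM of the first set (7 called) there were 4 with no filter, 21 with median-ratio scaling, 11 with only the compared groups, 0 with the replicate block and 0 without the 7 libraries of the set whose Wwox went against the label. In DKO BMT (4) there were 11 with median-ratio scaling, 9 with quantile scaling, 7 without the mitochondrial genome, 2 with only the compared groups, 2 with the replicate block and 1 without those 7 libraries. Of all genes, 2.69% rose and 1.78% fell with median-ratio scaling, 3.09% and 1.88% with quantile scaling, and 1.35% and 2.01% without the mitochondrial genome. The shares were 0.0694% and 0.25% with only the compared groups, 0.0417% and 0.257% with the block, and 0.131% and 0.203% without those 7 libraries. In DKO tumor (2) there was 1 of the 78 genes called with no filter, and 0 with the replicate block, with the leukocyte level as a covariate or with only the compared groups. Between tumor and BMT (0) there was 1 with the pseudocount of 0.1. Of all genes in DKO tumor, 0.22% rose and 0.373% fell with no filter. With the block, the covariate and only the compared groups 0.0%, 0.0% and 0.0278% rose and 0.0694%, 0.0903% and 0.118% fell. Between tumor and BMT 0.194% rose and 1.15% fell with that pseudocount. In the second set quantile scaling gave 12 calls of the 78 genes in SKO yBM (6), 21 in SKO BMT (11) and 14 in DKO BMT (9). Of all genes 11.4% rose and 10.7% fell in SKO yBM, 12.9% and 10.6% in SKO BMT, and 11.4% and 10.1% in DKO BMT. With only the compared groups 1.7% of all genes rose and 5.26% fell in SKO BMT, and 0.975% and 4.53% in DKO BMT. The shares were 0.443% and 4.97% in SKO tumor and 7.44% and 9.87% in DKO tumor. In SKO tumor 0.855% rose and 5.92% fell with no filter, and 5.23% and 11.0% with median-ratio scaling. Of the 78 genes, only the compared groups in the fit gave 2 in SKO BMT, 2 in DKO BMT, 1 in SKO tumor (7) and 4 in DKO tumor (8). SKO tumor had 4 with no filter and 4 with median-ratio scaling, and SKO BMT had 2 without the 5 libraries of that set whose Wwox went against the label. Without the third control column 4.92% of all genes rose and 5.09% fell in SKO yBM, 1.91% and 5.88% in SKO tumor, and 6.67% and 5.8% in DKO tumor. Without the first the shares were 3.28% and 7.74% in DKO yBM and 1.09% and 5.95% in SKO BMT. The calls of the 78 genes turned from mostly lower to mostly higher with quantile scaling in SKO yBM (1 higher and 5 lower, then 7 and 5) and DKO BMT (4 and 5, then 9 and 5), and without the third control column in SKO yBM (6 and 4), SKO tumor (1 and 6, then 5 and 4) and DKO tumor (2 and 6, then 5 and 2). They turned the other way without the first control column in DKO yBM (13 and 5, then 2 and 3) and SKO BMT (7 and 4, then 0 and 4), and without the libraries whose Wwox went against the label in SKO BMT (0 and 2) and in DKO BMT of the first set (3 and 1, then 0 and 1).

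Leaving out 1 library at a time gave 1 to 7 calls in DKO yBM, 2 to 3 in DKO BMT, 1 to 2 in DKO tumor, 0 to 1 between tumor and BMT and 0 to 0 between ages in the first set. In the second set it gave 4 to 10 in SKO yBM, 5 to 27 in DKO yBM, 4 to 15 in SKO BMT, 3 to 10 in DKO BMT, 2 to 9 in SKO tumor and 2 to 7 in DKO tumor, and 0 to 0 between DKO and SKO cells and in the interaction. Without the first control column there were 5 calls in DKO yBM, against 3.28% of all genes higher and 7.74% lower. Without the third there were 27, against 8.78% and 6.59%. The block by replicate number was fitted where both groups carry numbers. It changed the counts against control of the first set named above, where the numbers did not pair the libraries, gave 0 calls between the tumor and BMT cells that the study describes as paired (correlations of same-numbered libraries 0.0664, 0.285 and -0.0907), also with only those 6 libraries, a setting added after the data were seen, and left DKO against SKO at 0 calls in BMT, where same-numbered libraries deviated together, and in yBM and tumor. No paired analysis was possible for the comparisons with control of the second set because the control columns carry no numbers. With TPM alone the depth behind a value is unknown, and genes of few TPM, such as Cox4i2, Cox7a1 and Ndufa4l2, are the least certain.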
